A study of Mus musculus with 9 samples.

Results

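Leukocytes carry a signaling module that links receptors at the cell surface to the actin cytoskeleton, and 9 of its genes were followed here in the mouse iris. They encode the tyrosine kinases *Syk*, *Btk* and *Fgr*, the adapter *Lcp2* (SLP-76), the phospholipase *Plcg2*, the GTPase exchange factors *Vav1* and *Cyth4*, the WAVE complex subunit *Nckap1l* (HEM1) and the GDP-dissociation inhibitor *Arhgdib*. The 9 genes were looked up by gene symbol among 18349 genes listed in the count files, and all 9 passed the filter on low counts, as did 15010 genes in all. They had been chosen with the measured changes of these same libraries known, so their values are given as a description, without p-values.

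RNA-Seq libraries were made from iris tissue of 3 groups, with 3 libraries per group and 3 irises pooled in each library. Sham VEGFR3fl/fl mice received PBS on the cornea, and injured VEGFR3fl/fl mice received a corneal alkali injury (CAI) in which 0.5 μl sodium hydroxide at 1 M stayed on the cornea for 60 seconds. Injured VEGFR3iLECko mice received the same injury and carried, beside the floxed *VEGFR3* alleles shared by all 3 groups, a *Prox1-CreERT2* transgene, in which the *Prox1* promoter, active in lymphatic endothelial cells, drives a tamoxifen-dependent Cre. The VEGFR3fl/fl mice were littermates labelled WT. Mice were 6 weeks old at surgery and 10 weeks old at collection, 28 days later. Tamoxifen at 80 mg/kg was given on days 13 to 17 after injury, as the labels state without naming which groups received it. According to the paper, its littermate VEGFR3fl/fl controls were given tamoxifen in the same way, and its figure legends place tamoxifen after CAI or sham treatment. Cre acts in any cell that uses the *Prox1* promoter, so that the deletion is not limited by design to the iris. Because no label says which animals went into which pool, the spread between libraries is that between pools.

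When antigen receptors, Fc receptors or integrins of a leukocyte are engaged, Src-family kinases such as FGR phosphorylate ITAM motifs in the receptor chains, and SYK binds there and becomes active. SYK and BTK then phosphorylate a complex built on adapters such as SLP-76, in which VAV1 activates Rac and PLCγ2 releases calcium and diacylglycerol. Active Rac turns on the WAVE complex, which contains HEM1 in leukocytes and nucleates branched actin, while the product of *Arhgdib* holds GTPases such as Rac in an inactive form. The healthy iris holds few leukocytes beside resident macrophages and mast cells, and alkali injury is known to bring in many more.

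Some features of the libraries bear on every comparison. Totals were 16617187 to 18306359 counts per library, and replicates of a group differed by more than counting noise. *Flt4*, the mouse gene for VEGFR3, had 237 to 282 counts in Sham VEGFR3fl/fl libraries, 277 to 400 in injured VEGFR3fl/fl libraries and 370 to 478 in the libraries labelled VEGFR3iLECko, so it was not lower in the latter. Counts over the whole gene also include exons outside any deleted part and cells other than lymphatic endothelium. Y-linked genes summed to 923 to 2967 counts in the Sham VEGFR3fl/fl libraries and to 2483 and 2321 in injured VEGFR3fl/fl replicates 1 and 2, but to 14 in injured VEGFR3fl/fl replicate 3 and to 13 to 19 in the libraries labelled VEGFR3iLECko. Any comparison with the libraries labelled VEGFR3iLECko therefore also compares libraries with and without Y-linked RNA, and values with that library set apart are given below.

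PU.1 is a transcription factor of myeloid and B cells whose binding sites are built around the letters GAGGAA, and this motif was looked for in the promoters because the 9 genes moved together. RefSeq start sites of GRCm38.p6 gave 11 windows, from 250 bases before to 50 bases after a start, for 8 of the genes, and *Nckap1l* had no window. GAGGAA, on either strand, lay in 7 of the 11 windows, against 28.3% of 32851 windows of the same length over all genes. It was found for 7 of 8 genes, all but *Plcg2*, against 31.3% of 27025 genes. In *Arhgdib*, GAGGAA lay only at 1 of 3 starts, and the first bases after that start were found in no annotated transcript of the gene. The longer form GAGGAAGT, which contains it, was found for *Vav1* and *Cyth4*, against 3.69% of genes. TGTGGT, bound by RUNX factors, was found for 1 gene of the 8 (18.9% of all genes), the TATA box TATAAA for 1 (15.7%) and the AP-1 motif TGANTCA for 0 (8.97%). A match of letters is not a measured binding site. The 30 bases around each GAGGAA match are shown because the match is what the promoters of these 7 genes share. They are in the direction of the gene, with the match in capitals (TTCCTC where it lies on the opposite strand).
Vav1, 11 bases before the start (chr17:57279077-57279106, + strand): acagtcacagaaGAGGAAgtggtgttgtag
Syk, 9 bases before the second of 2 starts (chr13:52596861-52596890, + strand): tgctgacactttGAGGAAaagccacttccc
Arhgdib, 134 bases before 1 of 3 starts (chr6:136939644-136939673, - strand): gtatttgtgaaaGAGGAAcgtcacgcagtg
Lcp2, 4 bases after the start (chr11:34046920-34046949, + strand): aagccccctttgTTCCTCttcctgcttggc
Btk, 9 bases after the start (chrX:134583114-134583143, - strand): ctcagactgtccTTCCTCtctggactgtaa
Cyth4, 28 bases after the start (chr15:78597063-78597092, + strand): gccagggctgacTTCCTCccacagggtctg
Fgr, 31 bases after the start (chr4:132974114-132974143, + strand): gtccgagacggcTTCCTCctccctccccag

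All 9 genes were higher in injured VEGFR3fl/fl than in Sham VEGFR3fl/fl iris, between 3.59-fold for *Plcg2* and 51.7-fold for *Fgr*. Every injured library lay above every Sham library for each of the 9, as it did for 33.9% of all genes tested. All 9 were DEGs, defined throughout as genes changed by over 1.5-fold at an adjusted p below 0.05 in edgeR's quasi-likelihood test, as were 22.1% of all genes in this direction and 17.5% in the other. Their median log2 fold change was 4.16, against 0.010 over all genes tested. Since the genes were selected on such values, these counts only describe them. In bulk tissue, fewer cells of a type and less RNA per cell cannot be told apart. Levels are given as CPM, counts relative to the library size after TMM scaling in edgeR.

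**Figure D1:**
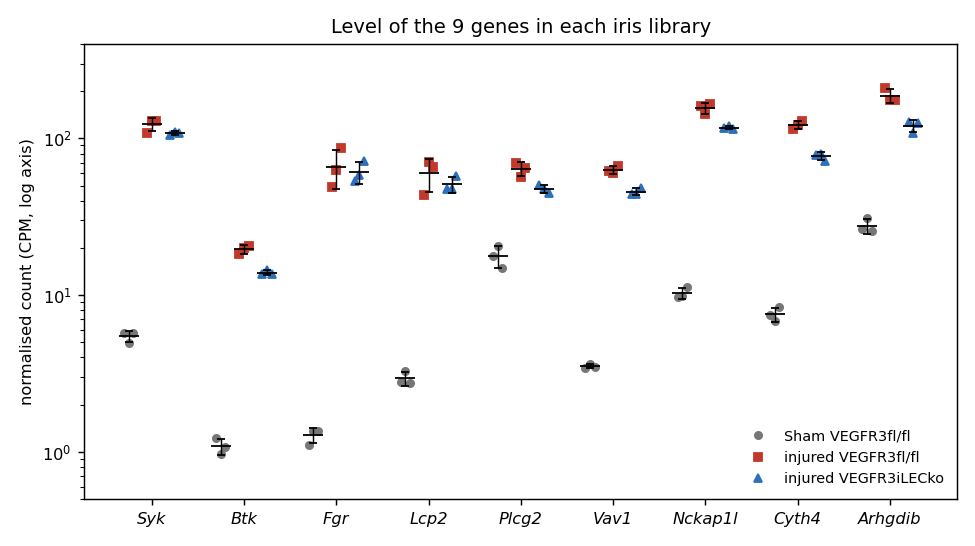
CPM (log axis) of each of the 9 genes in the 9 libraries, with points for libraries, horizontal marks for group means and bars for SD (n = 3). The 3 Sham VEGFR3fl/fl points of each gene lie below its injured points, with the narrowest gap for *Plcg2* and the widest for *Fgr*, while the 2 injured groups lie close together.

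Among the kinases, *Syk* (NCBI Gene ID 20963; chromosome 13, 52583173 to 52648792), which binds phosphorylated ITAMs, had 5.71, 4.91 and 5.74 CPM in the Sham VEGFR3fl/fl libraries and 108.9, 129.5 and 129.7 CPM in the injured VEGFR3fl/fl libraries. Its log2 fold change was 4.49 (SE 0.10), or 22.5-fold. *Btk* (ID 12229; chromosome X, 134542336 to 134583570), the kinase mutated in X-linked agammaglobulinemia and also used by myeloid cells, had the lowest level per length of the 9 after injury. It rose from 1.22, 0.960 and 1.07 CPM to 18.1, 20.0 and 20.7 CPM, a log2 fold change of 4.17 (SE 0.13). *Fgr* (ID 14191; chromosome 4, 132974095 to 133001910), a Src-family kinase of neutrophils and macrophages, rose most, from 1.11, 1.36 and 1.35 CPM to 49.1, 62.6 and 86.3 CPM, a log2 fold change of 5.69 (SE 0.26). The 3 injured libraries were far apart for *Fgr*, with an SD of 18.8 CPM around a mean of 66.0 CPM, whereas those of *Btk* had an SD of 1.30 CPM around 19.6 CPM.

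The adapter *Lcp2* (ID 16822; chromosome 11, 34046920 to 34092295) had 2.77, 3.28 and 2.76 CPM in Sham VEGFR3fl/fl iris and 43.7, 70.5 and 65.7 CPM in injured VEGFR3fl/fl iris. Its log2 fold change was 4.35 (SE 0.21), and injured replicate 1 was the lowest, as it also was for *Syk*, *Fgr*, *Btk* and *Cyth4*. *Plcg2* (ID 234779; chromosome 8, 117498291 to 117635142), which makes the messengers that raise calcium, had 17.8, 20.7 and 14.9 CPM before and 70.0, 56.7 and 64.7 CPM after injury. Its log2 fold change of 1.84 (SE 0.13) was the smallest of the 9. *Vav1* (ID 22324; chromosome 17, 57279100 to 57328031), the exchange factor for Rac, had nearly equal values within each group, with 3.43, 3.62 and 3.49 CPM in Sham and 61.9, 60.1 and 67.0 CPM in injured libraries. Its log2 fold change was 4.16 (SE 0.085).

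*Nckap1l* (ID 105855; chromosome 15, 103453794 to 103498810), the WAVE subunit of blood cells, had 9.69, 9.83 and 11.3 CPM in Sham VEGFR3fl/fl and 160.2, 142.1 and 165.0 CPM in injured VEGFR3fl/fl libraries, a log2 fold change of 3.92 (SE 0.093). *Cyth4* (ID 72318; chromosome 15, 78597047 to 78622019), which activates ARF GTPases, went from 7.42, 6.83 and 8.33 CPM to 115.2, 121.0 and 129.3 CPM, a log2 fold change of 4.01 (SE 0.096). *Arhgdib* (ID 11857; chromosome 6, 136923655 to 136941899) had the highest level per length in all groups and the smallest fold after *Plcg2*. Its values were 26.3, 31.2 and 25.6 CPM in Sham and 209.6, 175.4 and 176.6 CPM in injured libraries, and its log2 fold change was 2.76 (SE 0.12). Positions are those of GENCODE M21 on GRCm38, in which all 9 are protein-coding genes.

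Levels of different genes were compared per kilobase of the longest annotated transcript. In injured VEGFR3fl/fl libraries *Arhgdib* stood apart at 156.9 ± 16.3 CPM per kb (SD, n = 3), followed by *Cyth4* at 39.2 ± 2.28 and *Nckap1l* at 31.2 ± 2.42. *Syk* (22.9 ± 2.23), *Vav1* (21.3 ± 1.20) and *Fgr* (19.6 ± 5.60) were within their spread of each other, as were *Fgr*, *Lcp2* (16.5 ± 3.92) and *Plcg2* (14.8 ± 1.56), and *Btk* was lowest at 7.71 ± 0.513. The order was different in Sham iris, where *Plcg2* came second at 4.14 ± 0.676 CPM per kb behind *Arhgdib* at 23.2 ± 2.58. *Fgr*, in the middle of the order after injury, was there the lowest at 0.378 ± 0.0422, next to *Btk* at 0.426 ± 0.0510, from which it did not differ beyond the spread.

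Injured irises labelled VEGFR3iLECko were compared with injured VEGFR3fl/fl irises to describe these transcripts under the labelled deletion of VEGFR3 in lymphatic endothelium. *Flt4* counts, given above, did not show that deletion. The fitted difference was below 0 for all 9 genes, with log2 fold changes from -0.66 to -0.11 and a median of -0.42, against -0.0099 over all genes. *Cyth4* and *Arhgdib*, 2 of the 9, met the rule for a DEG, where 0.466% of all genes did in this direction and 0.573% in the other. For 6 of the 9, every library labelled VEGFR3iLECko lay below every injured VEGFR3fl/fl library, as it did for 14.3% of all genes. *Syk*, *Lcp2* and *Fgr* were the 3 whose groups overlapped.

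**Figure D2:**
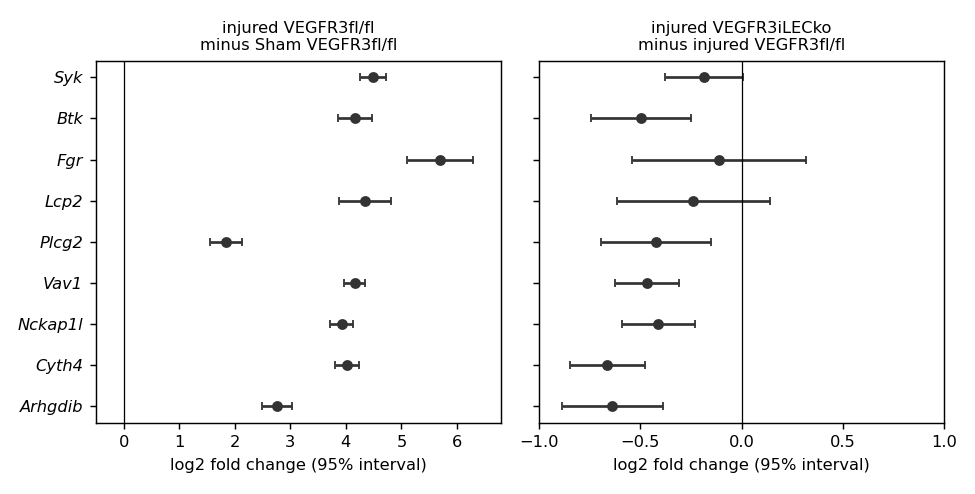
Log2 fold change with its 95% interval for each gene, injured VEGFR3fl/fl minus Sham VEGFR3fl/fl on the left and injured VEGFR3iLECko minus injured VEGFR3fl/fl on the right, with separate x axes. All intervals on the left lie above 0, and on the right those of *Syk*, *Lcp2* and *Fgr* include 0.

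*Cyth4* and *Arhgdib* had the largest differences of the 9. *Cyth4* had 78.8, 80.0 and 72.0 CPM in the libraries labelled VEGFR3iLECko, 1.58-fold lower than in injured VEGFR3fl/fl (log2 fold change -0.66, SE 0.082). *Arhgdib* had 127.5, 107.4 and 126.0 CPM, 1.56-fold lower (-0.64, SE 0.11). *Nckap1l*, at 115.7, 120.7 and 115.0 CPM, was lower by less, 1.33-fold (-0.41, SE 0.080). Leaving out 1 library at a time kept the direction of *Cyth4* and *Arhgdib*. *Cyth4* lost its call without replicate 1 or replicate 2 labelled VEGFR3iLECko, and *Arhgdib* lost its call without either of these, without replicate 3 labelled VEGFR3iLECko, without injured VEGFR3fl/fl replicate 1 and without Sham replicate 1 or 3. In a fit of only the 6 libraries of the groups compared, neither was called. At an unadjusted p under 0.05, 6 of the 9 genes were lower in that fit, where 9.26% of all genes were, and the same 6 were lower in the fit of all 9 libraries, where 12.5% were. Because the 9 genes were chosen with these changes known, such counts describe them and do not test them.

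The exchange factor *Vav1* had 44.1, 44.2 and 48.2 CPM in the libraries labelled VEGFR3iLECko (log2 fold change -0.47, SE 0.070). *Btk* had 13.6, 14.4 and 13.6 CPM (-0.50, SE 0.11), and *Plcg2* had 50.5, 47.5 and 44.8 CPM (-0.42, SE 0.12). For these 3 genes the groups did not overlap, and the changes were under 1.5-fold.

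*Syk*, *Fgr* and *Lcp2* differed least between the injured groups. *Syk* had 104.4, 110.0 and 108.8 CPM in the libraries labelled VEGFR3iLECko, of which only 110.0 CPM lay above the lowest injured VEGFR3fl/fl value, and the interval of its log2 fold change ran from -0.38 to 0.0052. *Lcp2* had 47.4, 47.2 and 57.9 CPM, with an interval from -0.62 to 0.14. *Fgr* had 53.2, 58.0 and 72.0 CPM, with an interval from -0.54 to 0.31, which includes the log2 fold changes of *Nckap1l* and *Vav1*. The data do not show that these 3 genes were alike in the 2 groups, only that their differences were within the spread.

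The libraries nearly free of Y-linked RNA were set beside each other, which leaves 1 injured VEGFR3fl/fl library, replicate 3, and the 3 libraries labelled VEGFR3iLECko. All 9 genes were lower in each of these 3 libraries than in replicate 3. The share of all genes that were so was not counted, and 1 library gives no spread. The count therefore does not show that the difference holds apart from the Y-linked level. For *Vav1*, *Syk*, *Nckap1l*, *Cyth4*, *Btk* and *Fgr*, replicate 3 was also the highest injured VEGFR3fl/fl library. The log2 ratio of the mean of the 3 libraries labelled VEGFR3iLECko to replicate 3 ran from -0.75 for *Cyth4* to -0.27 for *Syk*. It was -0.56 for *Vav1*, -0.50 for *Fgr* and -0.37 for *Lcp2*. When the summed Y-linked level entered the fit as a covariate, the log2 fold change of *Fgr* was -0.49 in place of -0.11, and those of *Cyth4* and *Arhgdib* were -0.73 and -0.56, with neither called. Without injured VEGFR3fl/fl replicate 3, that of *Fgr* was 0.13. With a single injured VEGFR3fl/fl library lacking Y-linked RNA, the group and the Y-linked level can be told apart only through that library.

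Both injured groups remained far above Sham. Between the irises labelled VEGFR3iLECko and Sham VEGFR3fl/fl, all 9 genes met the rule for a DEG, as did 19.7% of all genes in this direction and 15.0% in the other. The median log2 fold change was 3.67, from 1.42 for *Plcg2* to 5.58 for *Fgr*. This comparison shares its Sham libraries with that of injured VEGFR3fl/fl. The log2 rise over Sham was 76.9% of that in injured VEGFR3fl/fl for *Arhgdib*, 77.1% for *Plcg2*, 83.5% for *Cyth4* and between 88.1% and 98.0% for the other 6 genes.

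Each of the 9 genes has close relatives, many of them used by most cells, and its share of the summed level per kilobase of its family describes how far the leukocyte form prevailed. HEM1 and NAP1 (*Nckap1*) fill the same place in the WAVE complex, and *Nckap1l* made up 3.10%, 3.18% and 3.31% of the sum of both genes in Sham VEGFR3fl/fl libraries. After injury its share was 46.9%, 40.6% and 46.1%, and in the libraries labelled VEGFR3iLECko it was 34.2%, 33.7% and 32.5%, below every injured VEGFR3fl/fl library. *Nckap1* itself fell in injured VEGFR3fl/fl iris (log2 fold change -0.68, SE 0.078, adjusted p = 6.87e-05 in edgeR), so both partners moved. *Vav1* rose from 10.2 ± 0.373% of the 3 *Vav* genes to 59.1 ± 2.81% after injury, with 52.1 ± 1.37% in the libraries labelled VEGFR3iLECko. *Cyth4* went from 3.66 ± 0.223% of the 4 cytohesins to 36.3 ± 3.27% and 27.7 ± 0.565%. *Plcg2* went from 20.5 ± 3.85% of both *Plcg* genes to 53.9 ± 6.48% and 41.4 ± 3.41%.

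**Figure D3:**
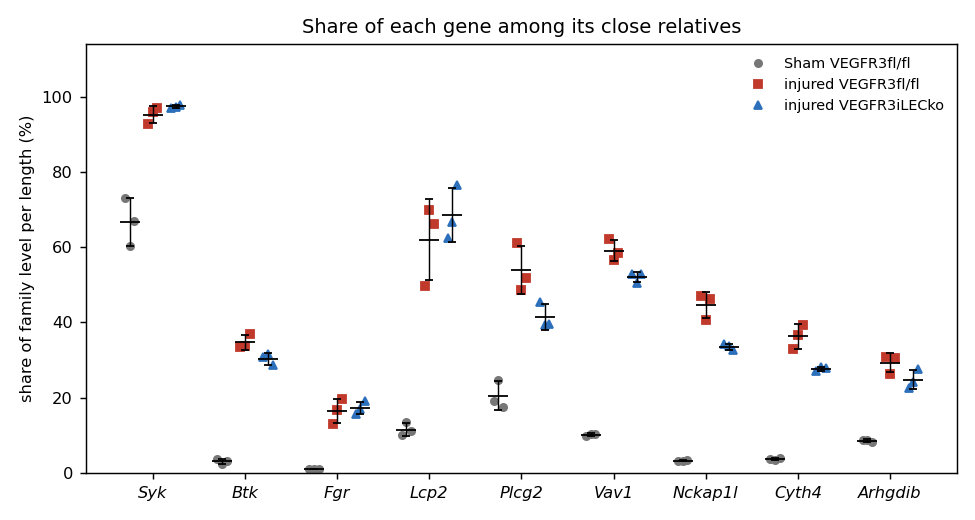
Share (%) of each gene in the summed level per kilobase of its family in each library, with points for libraries, marks for means and bars for SD (n = 3). Injured libraries lie above Sham libraries for all 9 genes, and for *Btk*, *Plcg2*, *Vav1*, *Nckap1l* and *Cyth4* those labelled VEGFR3iLECko lie below the injured VEGFR3fl/fl libraries.

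*Syk* was already the main form in Sham iris, with 66.7 ± 6.33% of the sum with *Zap70*, its T cell relative, and reached 95.2 ± 2.27% and 97.4 ± 0.456% in the injured groups. *Lcp2* had 11.5 ± 1.75% of its family with *Blnk* and *Clnk* in Sham, 62.0 ± 10.8% in injured VEGFR3fl/fl and 68.5 ± 7.15% in the libraries labelled VEGFR3iLECko. *Btk* went from 3.10 ± 0.669% of the 5 Tec kinases to 34.7 ± 1.92% and 30.4 ± 1.56%, and *Arhgdib* from 8.58 ± 0.305% of the 3 genes of its family to 29.3 ± 2.50% and 24.8 ± 2.48%. *Fgr* had the smallest share of its family, rising from 1.05 ± 0.0918% of 8 Src-family kinases to 16.5 ± 3.27% and 17.2 ± 1.67%. These shares depend on how reads common to relatives were assigned when the counts were estimated.

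The relatives, listed by family but with earlier results of these data known, were tested in the fit across all genes. Of all genes, 22.1% rose and 17.5% fell as DEGs in injured VEGFR3fl/fl versus Sham, the shares to set beside the list counts that follow. Of 13 widely expressed relatives, 5 rose and 2 fell in injured VEGFR3fl/fl versus Sham iris, with a median log2 fold change of 0.11. *Vav3*, a second Rac exchange factor, rose from a mean of 2.76 CPM in Sham to 10.3 CPM (log2 fold change 1.90, SE 0.21, adjusted p = 5.09e-05 in edgeR's quasi-likelihood test). *Cyth1* rose as well (1.15, SE 0.11, adjusted p = 2.08e-05, same test), and *Bmx*, a Tec kinase of endothelium, fell with *Nckap1* (-1.14, SE 0.26, adjusted p = 0.00466). *Src* (-0.01, SE 0.072) and *Cyth2* (0.11, SE 0.073) did not pass the test. Of 10 leukocyte relatives tested, 9 rose, with a median of 3.38. The Src-family kinase *Lyn* went from 19.6 to 21.5 CPM to 125.5 to 152.1 CPM (2.73, SE 0.090, adjusted p = 5.63e-08 in edgeR), and the adapter *Lat2* rose by 4.30 (SE 0.30, adjusted p = 3.24e-06). *Blk* had 1 count in all in the Sham libraries. The median over all 15010 genes was 0.010.

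Upstream of the kinases, all 9 ITAM chains and integrins tested rose after injury (median log2 fold change 3.71). *Tyrobp* (DAP12), the ITAM chain of myeloid receptors, rose from 11.1 to 12.9 CPM to 329.8 to 501.8 CPM (5.07, SE 0.18, adjusted p = 8.60e-08 in edgeR), and *Itgb2*, the β chain of leukocyte integrins, rose by 5.48 (SE 0.16, adjusted p = 3.10e-08). Of 13 inhibitors and brakes tested, 11 rose (median 2.25), among them *Ptpn6* (SHP-1), a phosphatase that opposes SYK, by 2.64 (SE 0.12, adjusted p = 2.76e-07, edgeR). *Sh2d1b1* and *Sla* had the largest rises of that list, with 6.26 to 13.2 and 31.0 to 50.2 CPM in injured VEGFR3fl/fl libraries.

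Downstream, the leukocyte forms stood apart from the widely used ones. Of 9 genes of the WAVE complex other than *Nckap1l* and *Nckap1*, 3 rose and 2 fell (median -0.0033), the largest rise being that of *Abi3* (2.48, SE 0.11, adjusted p = 2.69e-07 in edgeR) and the largest fall that of *Wasf3* (-1.26, SE 0.12, adjusted p = 2.56e-05). *Rac2*, the Rac of blood cells, went from 6.15 to 8.42 CPM to 131.1 to 173.8 CPM (4.37, SE 0.16, adjusted p = 8.91e-08), while *Rac1* did not pass the fold threshold (0.26, SE 0.074, adjusted p = 0.0130). Of 15 leukocyte actin regulators, 14 rose (median 3.48), led by *Pstpip1* (4.84, SE 0.17) and *Fermt3* (4.12, SE 0.11). Of 22 downstream messengers, 18 rose and 3 fell (median 1.98). *Pik3r5*, a regulatory subunit of PI3Kγ, rose most (5.54, SE 0.17), and *Prkcq* and *Rasgrp3* fell most (-2.67, SE 0.23, and -1.84, SE 0.10).

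Of all 102 related genes tested, 2 were lower and 0 were higher in the irises labelled VEGFR3iLECko than in injured VEGFR3fl/fl by edgeR's quasi-likelihood test. Of all genes, 0.466% were lower and 0.573% higher. At an unadjusted p under 0.05 in edgeR, 44 were lower and 5 higher, where 12.5% of all genes were lower. In either direction, 3674 of all 15010 genes had such a p. DESeq2 called 12 lower and 0 higher, against 283 lower and 350 higher among 18349 genes. The 2 were *Ptpn6*, with 64.9, 68.4 and 70.5 CPM against 93.6, 92.6 and 124.1 CPM (log2 fold change -0.61, SE 0.11, adjusted p = 0.0399 in edgeR), and *Fermt3* (kindlin-3), which activates integrins, with 57.2, 47.6 and 47.4 CPM against 81.2, 81.7 and 73.0 CPM (-0.63, SE 0.089, adjusted p = 0.0263). Neither was called in the fit of 6 libraries. *Ptpn6* also lost its call without any 1 of the Sham libraries, any 1 labelled VEGFR3iLECko or injured VEGFR3fl/fl replicate 3, and *Fermt3* without Sham replicate 1 or 3 or replicate 2 or 3 labelled VEGFR3iLECko. The lists' medians were -0.62 for leukocyte relatives, -0.49 for inhibitors and brakes, -0.46 for ITAM chains and integrins, -0.38 for leukocyte actin regulators, -0.23 for downstream messengers, 0.0047 for widely expressed relatives and 0.080 for the WAVE complex.

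Markers of leukocytes rose with the 9 genes after injury. All 5 pan-leukocyte genes (*Ptprc*, *Laptm5*, *Cd53*, *Itgb2*, *Coro1a*) rose in injured VEGFR3fl/fl iris. Their summed level went from 70.1 to 75.2 CPM in Sham to 1463.3 to 1656.3 CPM, with 1084.9 to 1214.4 CPM in the libraries labelled VEGFR3iLECko. Between the injured groups 0 of the 5 were called. The log2 fold changes there ran from -0.026 (SE 0.18) for *Ptprc* to -0.53 (SE 0.13) for *Laptm5*, the most abundant of the 5. The log2 of their geometric mean differed by 4.42 between injured and Sham VEGFR3fl/fl and by -0.36 between the irises labelled VEGFR3iLECko and injured VEGFR3fl/fl. The 9 genes were therefore also expressed as a ratio to that mean. The log2 ratio in injured VEGFR3fl/fl minus that in Sham was below 0 for 7 genes, with -2.57 for *Plcg2* and -1.67 for *Arhgdib*, and above 0 for *Fgr* (1.24) and *Syk* (0.067). Between the injured groups, the difference of the ratio (labelled VEGFR3iLECko minus VEGFR3fl/fl) was -0.31 for *Cyth4*, -0.28 for *Arhgdib*, -0.14 for *Btk*, -0.11 for *Vav1*, -0.062 for *Plcg2* and -0.053 for *Nckap1l*, and 0.14 for *Lcp2*, 0.17 for *Syk* and 0.27 for *Fgr*. The SD of the ratio between libraries was 0.042 to 0.41 in injured VEGFR3fl/fl and 0.012 to 0.16 in the libraries labelled VEGFR3iLECko, and *Cyth4*, *Arhgdib*, *Btk* and *Vav1* differed by more than the SD of each group. The picture was different for the ratio to the geometric mean of 8 macrophage genes. Injured VEGFR3fl/fl minus Sham was then above 0 for 8 genes, up to 3.43 for *Fgr* and with 0.52 for *Arhgdib*, and below 0 for *Plcg2* alone (-0.39). Between the injured groups 6 genes were below 0 in this ratio and 3 above, and *Cyth4* (-0.37) was the 1 gene that differed by more than the SD of each group. Of the 8 macrophage genes, *Cd163* alone was lower after injury. It had 6.92, 6.21 and 6.59 CPM in Sham and 0.607, 6.32 and 2.01 CPM in injured VEGFR3fl/fl libraries. Its fall raises this ratio in injured VEGFR3fl/fl, and its spread enters the SD. Between the injured groups *Cd163* was the 1 macrophage gene above 0 (log2 fold change 1.20, SE 0.70), while 7 were below. It had 4.44, 3.79 and 12.3 CPM in the libraries labelled VEGFR3iLECko, which lowers the ratio of every gene there. The signs of the ratio between the injured groups, and the difference of *Cyth4*, therefore depend on this 1 gene. The ratio without *Cd163* was not calculated.

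**Figure D4:**
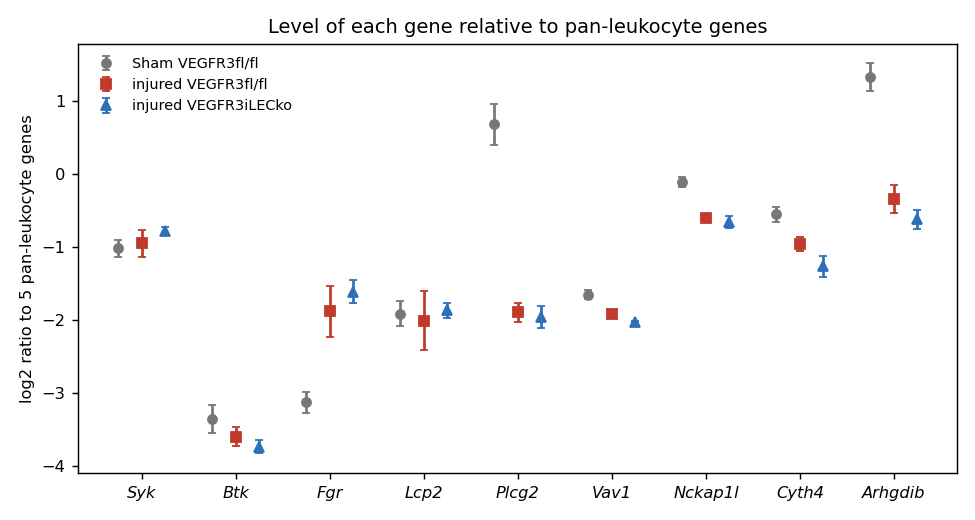
Log2 ratio of each gene to the geometric mean of 5 pan-leukocyte genes, as group mean with SD (n = 3). *Plcg2* and *Arhgdib* drop from Sham to the injured groups and *Fgr* rises, while the difference between the injured groups is at most 0.31 in size.

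Markers of the cell types that use this module did not move in 1 direction. Macrophage markers summed to 287.5 to 293.7 CPM in Sham, 2068.8 to 2140.9 CPM in injured VEGFR3fl/fl and 1321.9 to 1467.6 CPM in the libraries labelled VEGFR3iLECko. Of the 8, 7 rose after injury, and *Adgre1*, *C1qa* and *Fcgr1* were lower in the irises labelled VEGFR3iLECko, *Fcgr1* by a log2 fold change of -1.03 (SE 0.084, adjusted p = 0.00861 in edgeR). None of the 3 was called in the fit of 6 libraries (adjusted p = 0.0594 for *Fcgr1* in edgeR) or without replicate 2 labelled VEGFR3iLECko. *Adgre1* and *C1qa* also lost their call without replicate 1 or 3 labelled VEGFR3iLECko or Sham replicate 1 or 3, and *Adgre1* without injured VEGFR3fl/fl replicate 2. Neutrophil markers went the other way, with all 5 tested above 0 between the injured groups (median 1.33), 0 called by edgeR or DESeq2 and 2 at an unadjusted p under 0.05. Their sum was 103.3, 237.4 and 240.3 CPM in injured VEGFR3fl/fl replicates 1 to 3 and 206.3, 314.2 and 965.4 CPM in the libraries labelled VEGFR3iLECko, with *Ly6g* at 0 counts in all Sham libraries. *Fgr* and *Lcp2* had their lowest injured VEGFR3fl/fl value in the library lowest in neutrophil markers, replicate 1, and their highest value labelled VEGFR3iLECko in the library highest in them, replicate 3. *Syk*, *Btk* and *Cyth4* were also lowest in the former, and *Vav1* was also highest in the latter. Both *Fgr* and *Lcp2* were lower in replicate 3 labelled VEGFR3iLECko than in injured VEGFR3fl/fl replicate 3, which had less of these markers. The part of these markers in the values of the 9 genes was not tested.

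Sums of T cell, B cell, NK cell, mast cell and platelet markers were below those of macrophage markers in every library. T cell markers summed to 35.0 to 52.5 CPM in injured VEGFR3fl/fl and 19.7 to 38.8 CPM in the libraries labelled VEGFR3iLECko, and B cell markers to 4.59 to 5.89 and 1.96 to 3.91 CPM, with *Ms4a1* and *Pax5* among those too low to be tested. NK cell markers summed to 1.99 to 2.79 CPM and 1.04 to 1.75 CPM. Mast cell markers, of which 0 passed the test in edgeR or DESeq2 and 3 of 5 had an unadjusted p under 0.05 between the injured groups, summed to 113.8 to 178.3 CPM in injured VEGFR3fl/fl, 67.3 to 112.7 CPM in the libraries labelled VEGFR3iLECko and 84.9 to 92.1 CPM in Sham. Platelet markers summed to 23.2 to 114.4 CPM and 31.3 to 110.9 CPM in the injured groups. Genes of iris pigment cells and muscle, which check the tissue, summed to 32599.3 to 36300.0 CPM in Sham and 4218.0 to 8615.9 CPM in the 6 injured libraries, and 7 of 8 fell in injured VEGFR3fl/fl versus Sham. The 2 ciliary body genes used as a dissection check, *Atp6v1c2* and *Cacna1e*, summed to at most 3.64 CPM.

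The 9 genes, selected on these libraries, followed nearly the same profile over them. The Pearson correlation of each gene's log2 CPM with the mean of the other 8 was between 0.976 for *Plcg2* and 1.00 for *Vav1* (n = 9 libraries). The genes outside the set most like their mean profile were *Cxcr4*, a chemokine receptor, and *Lcp1* (L-plastin), an actin bundler of leukocytes, each with r = 0.999, followed by *Sh3glb1*, *Fxyd5* and *Rasa3* with r = 0.998 to 0.999. *Cxcr4* had 3.60 to 3.90 CPM in Sham, 126.3 to 147.2 CPM in injured VEGFR3fl/fl and 95.5 to 108.4 CPM in the libraries labelled VEGFR3iLECko. Sham and injured libraries lie far apart for all of these genes, which alone gives a high r, and 1548 genes had r over 0.95.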

How the data were processed

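Iris RNA was sequenced from 3 groups in 9 libraries. The authors aligned reads with HISAT2 2.0.4 and Bowtie2 2.2.5 (versions and build mm10 per the submitters' processing notes) and deposited estimated counts per gene without normalization. A combined table of the same libraries was not used. Values were rounded to whole counts in R 4.3.3. Genes kept by filterByExpr of edgeR 4.0.16 were normalized by TMM and fitted over all 9 libraries with group as the only term. Contrasts were tested by quasi-likelihood F tests in edgeR, p-values were adjusted by Benjamini-Hochberg across the whole table, and DEGs were genes changed by over 1.5-fold at an adjusted p below 0.05. DESeq2 1.42.0 served as an alternative. Fold changes carry SEs and 95% intervals from the fit. Groups followed titles and descriptions, since the genotype tags of 2 libraries labelled VEGFR3iLECko name another VEGFR number. Totals limit precision to the counts given, and P values measure the spread between pooled libraries. The paper counts 3 × 3 mice in each group, so this spread holds differences between animals beside technical ones. The members and gene lists were chosen with earlier results of these data known. Named genes were the members, their relatives, up to 2 of the largest changes per list in each direction, genes that tell what a list holds, and the 5 most alike profiles. Transcript lengths came from GENCODE M21 and promoter windows from RefSeq. The code was tested on simulated data. Results on some genes are not reported here.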

Additional observations from a re-analysis of the deposited data

How the results depend on the processing

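All 9 genes kept their call versus Sham under the 10 alternatives and with each library left out, in both injured groups, and no value of a called gene changed sign. Calls between the injured groups were less stable. Of the 9 genes, 2 were lower in the irises labelled VEGFR3iLECko by the fit described, 1 with library size only, 0 with only the 6 libraries compared, 0 with the replicate block, 0 with the Y-linked covariate and 4 with no fold threshold, and 0 to 2 with 1 library left out. For genes of the 8 related lists (2 lower) the counts were 4 by upper quartile, 0 with library size only, 12 by DESeq2, 0 with 6 libraries, 0 with the replicate block, 1 with the Y-linked covariate, 6 with no fold threshold and 0 to 7 with 1 library left out. At an unadjusted p under 0.05, the same 6 of the 9 genes were lower in the fit described (12.5% of all genes), with 6 libraries (9.26%) and with the block (10.4%), and these 6 and *Fgr* with the covariate (4.79%). Chosen with such values known, the 9 genes are only described by these counts. The replicate numbers do not pair the libraries (correlations of deviations -0.39 to 0.12), and the block changed no call of the 9 genes versus Sham. Of the related genes, *Brk1* lost its call in injured VEGFR3fl/fl with the block, and in the irises labelled VEGFR3iLECko *Cd79b* lost it while *Cd79a* and *Malt1* gained it. Over all genes, 86 were higher and 70 lower between the injured groups, against 71 and 41 with library size only, 350 and 283 by DESeq2, 0 and 0 with 6 libraries (2805 at an unadjusted p under 0.05), 11 and 13 with the block, 0 and 2 with the covariate, 122 and 112 with no fold threshold, and 0 to 174 and 0 to 149 with 1 library left out. Versus Sham, injured VEGFR3fl/fl had 3323 higher and 2630 lower genes, 2783 and 3523 with library size only, which moved the median over all genes to -0.16, and 4731 and 4269 with no fold threshold. Irises labelled VEGFR3iLECko had 2964 and 2259, 2646 and 2783 with library size only (median -0.12), and 4222 and 3953 with no fold threshold. *Arhgdia*, *Fyn* and *Blnk*, which rose after injury, lost their call with library size only. *Arhgdia* also lost it without Sham replicate 1 or injured VEGFR3fl/fl replicate 2, *Blnk* without injured VEGFR3fl/fl replicate 1, and *Zap70* without Sham replicate 1 or injured VEGFR3fl/fl replicate 1. The depth of 16617187 to 18306359 counts left *Txk*, *Clnk* and *Ubash3a* too low to be tested.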
